A study of Homo sapiens with 6 samples.

Results

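The clustered protocadherins are cell adhesion proteins of the cadherin superfamily whose genes stand in 3 neighbouring arrays, alpha, beta and gamma, on the long arm of human chromosome 5. Every gene with a name of the pattern PCDHA, PCDHAC, PCDHB, PCDHGA, PCDHGB or PCDHGC followed by a number was taken from the count table, which gave 59 of 36517 genes. They were 16 alpha genes, 19 beta genes and 24 gamma genes, 6 of them pseudogenes, and they covered 727 kb at chr5:140786136-141512981 on the plus strand of GRCh38. The set was chosen with the comparison described here in view, so the values of the members in it are a description. Where a member is said to be called, this is its place in a fit over all genes and is no evidence about the set, and no p-value is given for it.

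In the alpha and gamma arrays each gene has its own large first exon, called the variable exon, with its own promoter, and that exon is spliced to a short set of constant exons at the end of the array. A beta gene is mostly a single exon with no constant part. In neurons each cell uses a small choice of the promoters, the proteins of matching type on facing membranes bind each other, and the choice depends on CTCF and cohesin, on SMCHD1 and on DNA methylation. The C-type genes, PCDHAC1, PCDHAC2 and PCDHGC3 to PCDHGC5, stand closest to the constant exons and are chosen less randomly than the others.

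The libraries came from MDA-MB-453, an established human breast cancer line that expresses the androgen receptor. Cells of group shtRF (3 libraries) received a lentivirus with a short hairpin RNA against tRF-1-Ser, a fragment of a serine transfer RNA precursor. Cells of group control (3 libraries) received a lentivirus with the control hairpin shNC, and all libraries were labelled day 3. Each group is thus 1 hairpin in 1 line. The study's text says that the knockdown was measured by qPCR, and these messenger RNA libraries do not measure the fragment. The study's methods call the replicates biological, but nothing in the sources used here says that they came from separately infected cultures, so the spread between them, and every p-value below, may be technical.

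The libraries held 63541413 to 78917459 counts. All 10 breast line markers were present, with a summed level of 4883 to 4977 CPM (counts scaled to library size, with the TMM method) in control and 5985 to 6454 in shtRF. Of these 10 genes, 3 were higher, 3 were lower and 4 did not pass at an adjusted p under 0.05 (edgeR), where 20.6% of all genes tested were higher and 18.9% lower. The 14 neural markers in the table summed to only 4.69 to 6.05 CPM in control and 5.14 to 6.05 in shtRF, and 5 of them passed the low-count filter. The 11 markers of stroma and blood summed to 34.4 to 40.8 CPM in control and 27.3 to 29.7 in shtRF.

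Promoters of the clusters carry a short shared element that contains a CTCF binding site, so the letters that the promoters of an array share most often are shown first. RefSeq promoters (GRCh38.p14) were matched for 47 of the 59 genes. In the 250 bases before the start, the gene-strand word of 10 bases held by the most genes was taken for each array. Its presence was then counted on either strand. Each word was picked from these same promoters, so its high share in its own array follows from the choice. In the beta array this was GGTGGCGCTG, found before 11 of 14 genes and before 0.286% of the 27305 genes with a RefSeq promoter. In the alpha array it was ATGATGTCGC, found before 8 of 13 genes and before 0.0403% of all. In the gamma array it was GCGCCGCTGT, found before 9 of 20 genes and before 0.143% of all. No word was found in another of the 3 arrays. The stretches below are from genes whose levels are described in the following paragraphs, with the shared word in capitals and up to 12 bases on each side. All are on the plus strand, upstream of the RefSeq start and outside the exons of the count table.
PCDHB2, chr5:141094543-141094576: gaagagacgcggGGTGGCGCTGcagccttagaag
PCDHB4, chr5:141121722-141121755: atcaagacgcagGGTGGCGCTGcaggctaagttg
PCDHB10, chr5:141192298-141192331: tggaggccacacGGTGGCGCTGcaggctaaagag
PCDHA4, chr5:140806976-140807009: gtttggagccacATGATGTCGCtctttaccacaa
PCDHA6, chr5:140827894-140827927: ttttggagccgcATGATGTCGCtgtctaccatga
PCDHA12, chr5:140875241-140875274: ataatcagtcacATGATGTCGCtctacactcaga
PCDHGA10, chr5:141412931-141412964: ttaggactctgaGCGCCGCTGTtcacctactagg
PCDHGB5, chr5:141397863-141397896: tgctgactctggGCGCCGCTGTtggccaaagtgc
PCDHGB6, chr5:141407924-141407957: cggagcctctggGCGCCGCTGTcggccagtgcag
The first base of the word lay 16 to 84 bases before the start in beta genes (median 66), 45 to 88 in alpha genes (median 58.5) and 44 to 99 in gamma genes (median 69), taking the nearest start where RefSeq gives several. PCDHB1, PCDHB8 and PCDHB14 did not hold the beta word. The C-type genes with a RefSeq promoter, PCDHAC1, PCDHAC2, PCDHGC3 and PCDHGC4, did not hold the word of their array. A missing word says only that these letters are not in this window.

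The exons of the table decide what a count can show. The alpha genes share 2866 bases of constant exons between bases 140978949 and 141012344, and the gamma genes share 2181 bases between 141494807 and 141512979. Of an alpha coding gene's exonic bases, 36.9% to 78.7% belonged to no other gene, and of a gamma coding gene's, 35.6% to 72.4%. Of a beta coding gene's bases, 75.1% to 100% were its own, and no beta gene shared a base with another member. A read in shared bases was counted for each gene that holds them: the pseudogene PCDHA14, which lies wholly within exons of PCDHA10, held 54, 143 and 93 counts in control libraries 1 to 3. A count of an alpha or gamma gene is therefore the reads of its own exon plus those of the constant exons, whichever variable exon they were spliced to.

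Of the 59 genes, 49 passed the low-count filter, namely all 16 alpha, 10 beta and 23 gamma genes. Over all 19628 genes that passed, 20.6% were called higher in shtRF and 18.9% lower at an adjusted p under 0.05 (edgeR quasi-likelihood test, Benjamini-Hochberg). Of the alpha genes, 15 were called higher and 0 lower (0 also at an unadjusted p under 0.05, and 0 with DESeq2 and limma), with a median log2 fold change of 0.48. Of the gamma genes, 22 were called higher and 0 lower (0 also unadjusted and with both other tools), with a median of 0.81. Of the beta genes, 1 was called higher and 2 lower, with a median of -0.30. The median over all genes tested was -0.0025. The alpha and gamma counts are not counts of separate observations, because the constant exons enter each of them, and since the members were chosen on this contrast nothing is read from the calls.

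**Figure D1:**
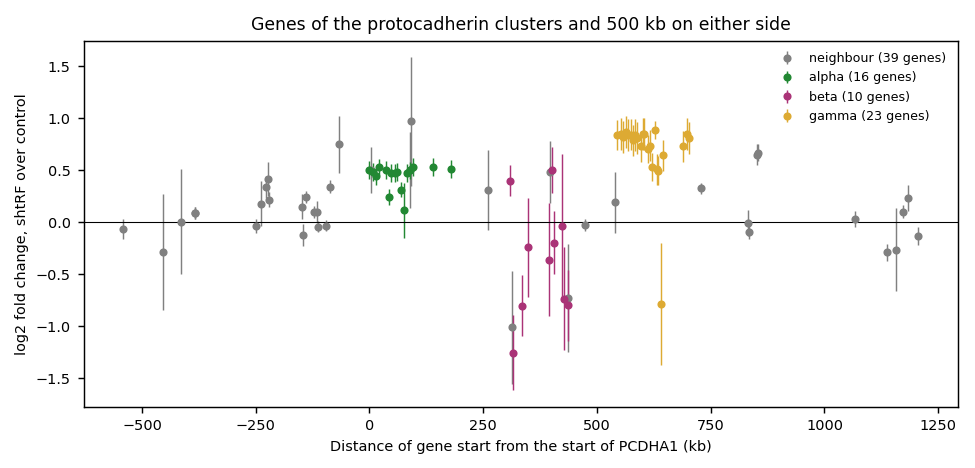
Log2 fold change of shtRF over control (vertical axis, bars are standard errors) against the distance of each gene's start from the start of PCDHA1 in kb (horizontal axis), for the 49 cluster genes and 39 neighbours that passed the filter. Alpha genes run from 0.11 to 0.53 (median 0.48). Gamma genes run from -0.79, the pseudogene PCDHGB8P, to 0.89 (median 0.81). The 10 beta genes between them run from -1.25 to 0.50.

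The beta genes, which encode the adhesive part with no constant tail, did not move together. Their summed level was 9.57 ± 0.53 CPM in control and 9.29 ± 0.66 in shtRF (SD, n = 3 each), and the groups overlapped. In such bulk libraries fewer expressing cells and less RNA per cell cannot be told apart. Of the 10 that passed the filter, 1 had every shtRF library above every control library, 3 had every one below and 6 overlapped, where 24.9% and 23.8% of all genes tested lay wholly above or below. Among the 9 that did not pass, 6 held at most 10 counts in every library.

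PCDHB2 was the most abundant beta gene per length in both groups, at 0.743 ± 0.077 RPKM (counts scaled by library and by gene length) in control and 0.945 ± 0.167 in shtRF. It held 207, 240 and 213 counts in control libraries 1 to 3 and 279, 226 and 288 in shtRF libraries 1 to 3. In CPM the 3 shtRF libraries were the higher ones, the second of them only narrowly, and its level went from 3.01 ± 0.30 to 3.97 ± 0.68 CPM, a log2 fold change of 0.40 ± 0.15 (SE). Its call was lost without control 1, 2 or 3 or without shtRF 1 or 3, where the log2 fold change ran from 0.28 to 0.43, and also with upper quartile scaling and with limma.

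PCDHB3, the next gene along, went the other way. It held 42, 50 and 58 counts in control and 22, 18 and 17 in shtRF. No shtRF library reached any control library, and the level went from 0.678 ± 0.043 to 0.283 ± 0.027 CPM, a log2 fold change of -1.25 ± 0.36. The antisense gene AC005754.7, 63.3% of whose exonic bases overlap other genes, chiefly PCDHB3, was at 0.319 ± 0.199 CPM in control and 0.159 ± 0.027 in shtRF and did not pass the test (log2 fold change -1.01 ± 0.54, edgeR adjusted p = 0.15). Reads of the pair cannot be told apart if strand was not used in counting, which is not given in the sources used here.

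PCDHB4 held 50, 68 and 82 counts in control and 36, 42 and 26 in shtRF. Again the groups did not overlap, with 0.899 ± 0.129 CPM against 0.514 ± 0.096 and a log2 fold change of -0.80 ± 0.30. Without control 2 or 3, or without shtRF 1 or 3, the gene lost its call at log2 fold changes of -0.81 to -0.68. PCDHB14 held 48, 42 and 62 counts in control and 34, 26 and 20 in shtRF, again without overlap. Its log2 fold change of -0.80 ± 0.34 was not called. Among the other settings it was called only with counts halved and when each library had to hold 10 or more counts.

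PCDHB9 held 70, 127 and 101 counts in control and 115, 114 and 151 in shtRF. Control 2 and shtRF 1 and 2 were close together in CPM, so the groups overlapped, and the log2 fold change of 0.50 ± 0.22 was not called (0.69, and called, without control 2). PCDHB10 held 90, 76 and 74 counts in control and 35, 92 and 65 in shtRF. In CPM shtRF 1 lay below every control library and the other two within the control range, and the log2 fold change of -0.20 ± 0.30, which was not called, turned to 0.11 without shtRF 1. PCDHB13 held 19, 14 and 58 counts in control and 18, 21 and 10 in shtRF, with control 3 far above the rest. Its log2 fold change of -0.74 ± 0.50 was not called and rests on that library, being 0.03 without it.

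**Figure D2:**
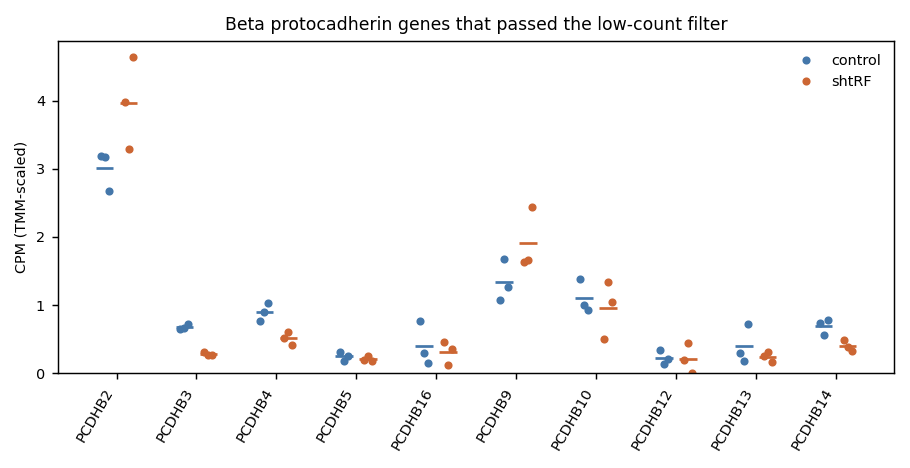
Level of the 10 beta genes that passed the low-count filter in CPM (vertical axis), in order along the chromosome, with 1 point per library (3 control, 3 shtRF) and a line at each group mean. PCDHB2 leads at 3.01 CPM in control and 3.97 in shtRF, and PCDHB3, PCDHB4 and PCDHB14 are the genes whose shtRF points all lie below the control points.

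Within that total the shares of single genes differed between the groups. PCDHB2 took 31.5% of all beta counts in control and 42.7% in shtRF, and PCDHB9 took 14.1% and 20.4%. PCDHB3 went from 7.1% to 3.1% and PCDHB4 from 9.5% to 5.6%. These shares are means of 3 libraries, and PCDHB2's share ran from 28.7% to 34.4% in control and from 35.8% to 46.5% in shtRF, while the ranges of PCDHB9 overlapped. Beta genes are close relatives, and reads can be split or lost between copies: of the 100-base stretches of PCDHB10 transcripts, 24.7% recur exactly in another beta gene (chiefly PCDHB9), compared with 11.3% for PCDHB2, 10.3% for PCDHB9, 9.0% for PCDHB3 and 4.4% for PCDHB4.

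For the alpha genes, the lowest count of any coding gene in a library gives the most that the shared constant exons can have added to every other gene. That lowest count was 571, 606 and 702 in control and 868, 834 and 704 in shtRF. Every shtRF library lay above every control library once scaled, at 11.95 ± 0.53 CPM against 8.53 ± 0.44, which is 1.40-fold. In both groups this single number made up at least 90% of the mean count of 9 of the 15 coding genes. PCDHAC2, for example, had 8.59 ± 0.50 CPM in control and 12.2 ± 0.4 in shtRF (log2 fold change 0.51 ± 0.09), of which only 0.0596 and 0.28 CPM lay above the lowest gene. That small part was 10, 0 and 2 counts in control and 18, 8 and 29 in shtRF, and once scaled the groups overlapped.

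**Figure D3:**
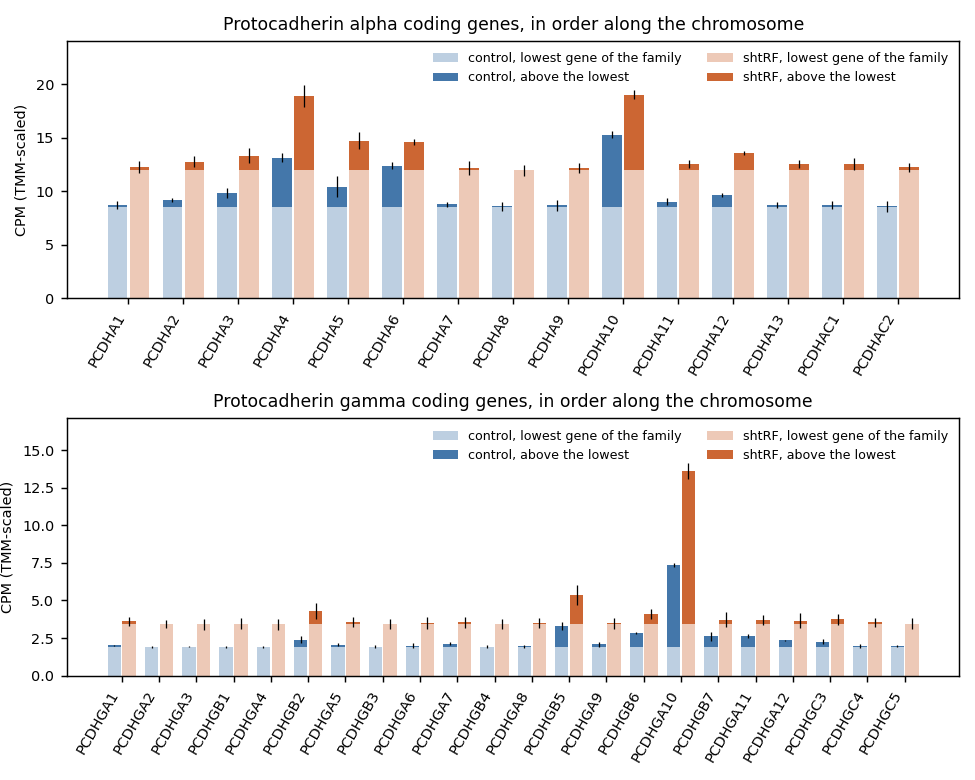
Mean level in CPM (vertical axis, bars from 0, error bars are the SD of the whole count over 3 libraries) of the 15 alpha and 22 gamma coding genes in order along the chromosome, in control and shtRF. The pale part is the lowest gene of the family and is the same in every bar of a group (8.53 and 11.95 CPM in alpha, 1.90 and 3.41 in gamma), and the dark part is what each gene held above it.

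The counts above the lowest gene, which come closest to the reads of a gene's own variable exon, differed from gene to gene. For 5 alpha genes they were higher in every shtRF library than in every control library, for 1 they were lower and for 9 the groups overlapped (over all genes tested, by whole counts, 24.9% and 23.8%). PCDHA4, PCDHA5, PCDHA10 and the gamma genes PCDHGA11, PCDHGA12, PCDHGB6 and PCDHGB7 are named here after their values were seen.

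PCDHA10 held the largest amount above the lowest gene in control, 420, 530 and 547 counts against 477, 497 and 446 in shtRF. The groups overlapped at 6.78 ± 0.29 and 7.07 ± 0.25 CPM, although the gene's whole count had a log2 fold change of 0.31. PCDHA4 held 316, 371 and 322 counts in control and 544, 434 and 425 in shtRF. All 3 shtRF libraries were higher, at 6.97 ± 0.72 CPM against 4.60 ± 0.49. PCDHA5 was higher in all 3 as well, at 2.78 ± 0.29 CPM against 1.90 ± 0.54.

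PCDHA6 showed the opposite sign in its own part and in its whole count. Its whole count went from 12.4 ± 0.3 to 14.6 ± 0.3 CPM, a log2 fold change of 0.24 ± 0.08 whose call was lost without control 2 or shtRF 2 and with limma. Above the lowest gene it held 257, 309 and 280 counts in control and 158, 187 and 185 in shtRF. Every shtRF library was lower there, at 2.65 ± 0.37 CPM against 3.85 ± 0.31, a log2 ratio of -0.54.

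Among the alpha genes with few reads of their own, PCDHAC1 held 9, 16 and 10 counts above the lowest in control and 56, 23 and 42 in shtRF, and PCDHA13 held 9, 27 and 4 against 35, 41 and 50. Both were higher in all 3 shtRF libraries and together they remain a small part of the array, at 0.603 and 0.634 CPM in shtRF. PCDHA12 held 56, 105 and 80 counts in control and 81, 88 and 152 in shtRF, and its groups overlapped.

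In the gamma array the lowest coding gene held 128, 142 and 147 counts in control and 250, 250 and 187 in shtRF. The shtRF libraries were again all higher, at 3.41 ± 0.34 CPM against 1.90 ± 0.06, which is 1.80-fold. It made up at least 90% of the mean count of 13 of the 22 coding genes in control and of 18 in shtRF. PCDHGB1 itself went from 1.90 ± 0.06 to 3.45 ± 0.36 CPM (log2 fold change 0.87 ± 0.15), with 0, 0 and 0 counts above the lowest in control and 2, 6 and 2 in shtRF.

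PCDHGA10 stood apart from the other gamma genes. It held 476, 547 and 599 counts in control and 950, 905 and 882 in shtRF, which is 7.35 ± 0.14 and 13.6 ± 0.5 CPM and a log2 fold change of 0.89 ± 0.09. Above the lowest gene it held 348, 405 and 452 counts in control and 700, 655 and 695 in shtRF. The shtRF libraries were all far above the control libraries there, at 10.2 ± 0.9 CPM against 5.46 ± 0.18. PCDHGA10 thus took 46.7% of all gamma counts above the lowest gene in control and 63.6% in shtRF.

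The remaining gamma genes went in both directions. Summed over the 21 other coding genes, the counts above the lowest came to 6.26 ± 0.65 CPM in control and 5.85 ± 0.64 in shtRF, and the groups overlapped. Including PCDHGA10 the sum was 11.7 ± 0.6 and 16.1 ± 0.3 CPM. Gene by gene, 3 of the 22 lay wholly above in shtRF, 4 wholly below and 15 overlapped, against 24.9% and 23.8% of all genes tested by whole counts, so neither number stands above the background.

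Along the chromosome the 4 that lay below and PCDHGA10 form an unbroken run of coding genes, with PCDHGB6 before PCDHGA10 and the others after it. PCDHGA11 held 52, 50 and 56 counts above the lowest in control and 18, 20 and 18 in shtRF, a log2 ratio of -1.37. PCDHGB7 held 61, 31 and 65 against 28, 27 and 8, PCDHGA12 held 26, 34 and 38 against 18, 27 and 6, and PCDHGB6 held 62, 68 and 81 against 62, 33 and 48. These are low counts, and in all 4 the whole count of the gene was nonetheless higher in shtRF. The pseudogene PCDHGB8P, which has no constant exons, held 22, 13 and 15 counts in control and 11, 14 and 2 in shtRF, and its groups overlapped.

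PCDHGB2 and PCDHGB5 had more reads of their own than most gamma genes. PCDHGB2 held 44, 32 and 32 counts above the lowest in control and 59, 76 and 44 in shtRF, all higher once scaled, at 0.885 ± 0.202 CPM against 0.50 ± 0.15. PCDHGB5 held 105, 106 and 97 against 164, 135 and 100, at 1.97 ± 0.36 CPM against 1.41 ± 0.20, and touched the control range. The C-type genes PCDHGC3, PCDHGC4 and PCDHGC5 held at most 36 counts above the lowest in any library and overlapped between groups, while their whole counts gave log2 fold changes of 0.73, 0.85 and 0.81.

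**Figure D4:**
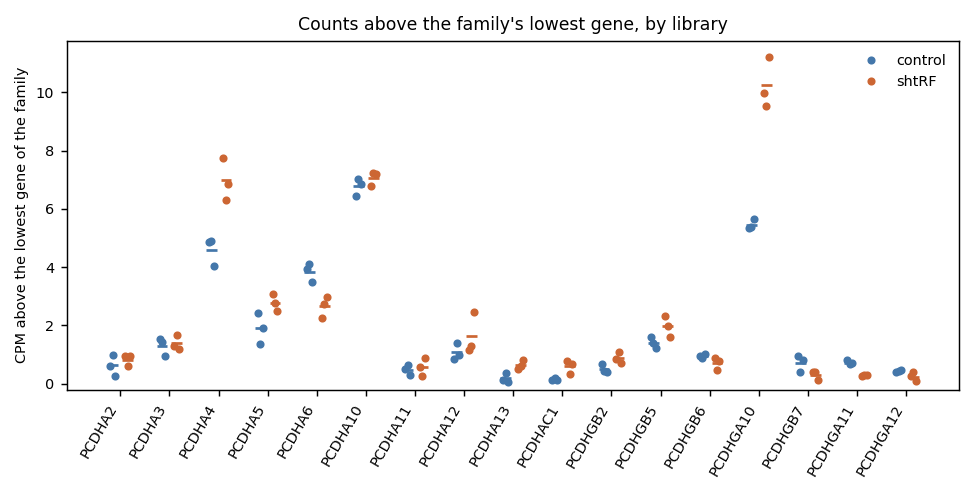
Counts above the lowest gene of the family, as CPM (vertical axis), for the 17 alpha and gamma genes with a group mean of at least 0.4 CPM, with 1 point per library and a line at each group mean. PCDHA4 and PCDHGA10 lie higher in shtRF (6.97 and 10.2 CPM), as do PCDHA5, PCDHA13, PCDHAC1 and PCDHGB2 at lower levels. PCDHA6, PCDHGB6, PCDHGB7, PCDHGA11 and PCDHGA12 lie lower, and PCDHA10 stays near 7 CPM.

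A refit of the whole table with the lowest count taken off each coding gene, and kept as a row of its own, was chosen after seeing the data. There 5 of the 15 alpha genes that passed the filter were called higher and 1 lower, where 20.5% and 18.8% of all 19620 genes were. These 15 include the pseudogene PCDHA14, from which nothing was subtracted, and leave out PCDHA8, which no longer passed. The 5 were PCDHA4, PCDHA5, PCDHA13, PCDHAC1 and PCDHAC2. They are not all among the 5 that lay wholly above, because the groups of PCDHAC2 overlapped. Of 14 gamma genes that still passed the filter, 2 were called higher (PCDHGA10 and PCDHGB2) and 2 lower (PCDHGA11 and PCDHGB7), and their median log2 fold change was -0.29. These 14 and their median include the pseudogene PCDHGB8P (-0.79), from which nothing was subtracted. The row of the lowest alpha count had a log2 fold change of 0.49 ± 0.09 and that of the lowest gamma count 0.85 ± 0.15.

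Per length, the constant exons and the variable exons can be set side by side. The lowest alpha count came to 2.98 ± 0.15 CPM per kb of constant exon in control and 4.17 ± 0.18 in shtRF, and the counts above it, each divided by the gene's own bases and summed, to 4.46 ± 0.62 and 5.43 ± 0.52. The lowest gamma count came to 0.869 ± 0.030 and 1.56 ± 0.16 CPM per kb, and the summed own levels to 3.24 ± 0.21 and 4.25 ± 0.07. In both arrays the level of the constant exons was thus below the summed own level, and in gamma by a wider margin. Counts above the lowest include reads in variable exon bases shared with other genes. The gene's own bases leave these out, so the summed own levels can be too high.

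Few protocadherins outside the clusters were expressed. Of 12 listed, 5 passed the filter, 0 were higher (0 also at an unadjusted p under 0.05, and 0 with DESeq2 and limma) and 1 was lower, with a median of -0.26. Over all genes 20.6% were higher and 18.9% lower. The gene that fell was PCDH11X, an X-linked protocadherin expressed mostly in brain, with 138, 118 and 154 counts in control and 42, 56 and 48 in shtRF. Its groups were well apart, at 1.87 ± 0.28 and 0.729 ± 0.116 CPM (log2 fold change -1.36 ± 0.23, edgeR adjusted p = 5.2e-05). PCDH1, the most abundant of the 5, had a log2 fold change of 0.03 ± 0.08 and did not pass. PCDH20, PCDH7 and PCDH12 had log2 fold changes of 0.11, -0.41 and -0.26 and did not pass, and PCDH20 shares 95.8% of its exonic bases with RP11-310K10.1.

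Of 66 other genes that lie within the span of the clusters or up to 500 kb on either side, 39 passed the filter. Of these, 9 were higher, 1 was lower and 29 did not pass, with a median of 0.10. Over all genes 20.6% were higher and 18.9% lower. Some of the 66, such as AC005754.7, share exonic bases with cluster genes, so their counts can hold reads of members. PCDH1 and PCDH12 are also among the non-clustered protocadherins above. TAF7, a subunit of the general transcription factor TFIID that lies between the beta and gamma arrays, was at 175 ± 5 CPM in control and 172 ± 10 in shtRF (log2 fold change -0.02 ± 0.06, edgeR adjusted p = 0.77). Its neighbour SLC25A2, a mitochondrial ornithine carrier, held 0, 0 and 3 counts in control and 0, 0 and 0 in shtRF. DIAPH1, a formin that nucleates actin, ends just past the gamma constant exons on the opposite strand and rose from 211 ± 8 to 265 ± 10 CPM (log2 fold change 0.33 ± 0.05, edgeR adjusted p = 3.9e-05).

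FCHSD1, an F-BAR protein of endocytosis and actin, rose from 17.2 ± 2.2 to 27.3 ± 1.4 CPM (log2 fold change 0.67 ± 0.08, edgeR adjusted p = 9.2e-07). RELL2, a membrane protein related to the receptor RELT, rose by a log2 fold change of 0.65 ± 0.10, and 38.6% of its exonic bases overlap FCHSD1 on the other strand, so the pair may not be separate. KIAA0141, a mitochondrial stress sensor, fell by 0.29 on the log2 scale (edgeR adjusted p = 0.0054), and GNPDA1, an enzyme of amino sugar breakdown, at -0.13, did not pass.

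The genes known to act on cluster promoters mostly fell by small amounts. Of 31 listed, 30 passed the filter, 18 were lower, 2 higher and 10 did not pass, with a median of -0.17, where 18.9% of all genes were lower and 20.6% higher. DNMT3B, a DNA methyltransferase that methylates cluster promoters during development, held 996, 1126 and 1157 counts in control and 345, 359 and 341 in shtRF. The groups were widely apart, at 14.9 ± 0.4 and 5.21 ± 0.29 CPM (log2 fold change -1.52 ± 0.09, edgeR adjusted p = 1.3e-11). CDCA5, the cohesin-stabilising protein sororin, fell by 0.71 on the log2 scale (adjusted p = 5.9e-09 in edgeR), and TET3, which oxidises methylated cytosine, fell by 0.63 (adjusted p = 1.2e-08 in edgeR).

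LRIF1, a partner of SMCHD1 and of HP1 proteins, rose by a log2 fold change of 0.55 ± 0.06 (edgeR adjusted p = 8.6e-08), with 31.0% of its exonic bases overlapping RP11-96K19.2. EHMT2, a histone H3 lysine 9 methyltransferase, had a log2 fold change of 0.12 and did not pass. Of the direct architectural factors, named after their values were seen, CTCF was at 278 ± 4 and 262 ± 16 CPM (log2 fold change -0.09 ± 0.05, edgeR adjusted p = 0.22). The cohesin subunit RAD21, with 14.4% of its exonic bases overlapping other genes, chiefly UTP23, fell by 0.25 on the log2 scale (edgeR adjusted p = 0.00081). SMCHD1 fell by 0.31 (edgeR adjusted p = 0.00023). The part of these genes in the cluster values was not tested.

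**Figure D5:**
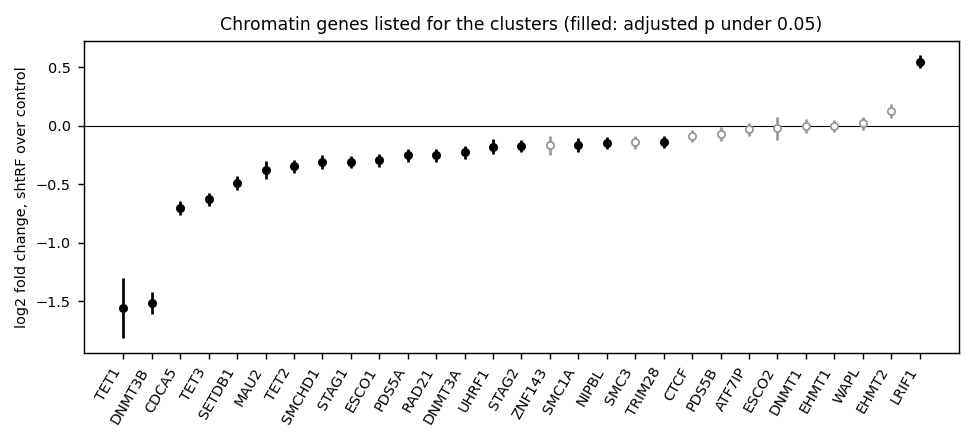
Log2 fold change of shtRF over control (vertical axis, bars are standard errors, n = 3 libraries a group) for 29 of the 30 listed chromatin genes that passed the filter, ordered by value. Filled points passed an adjusted p under 0.05: 18 lie below 0, led by TET1 and DNMT3B, and LRIF1 lies above it.

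Genes that process the proteins or act below them were split. Of 20 listed, 19 passed the filter, 8 were higher, 3 lower and 8 did not pass, with a median of 0.08, where 20.6% of all genes were higher and 18.9% lower. Only 5 were higher with upper quartile scaling, with limma and without control 1. Fewer genes were higher over all in those fits too. Of 19628 genes, 3508 were higher with upper quartile scaling, and 2900 and 2903 with the limma fits. Without control 1, 3550 of 20248 were higher. PTK2B, a kinase of the focal adhesion kinase family that clustered protocadherins bind and inhibit, held 326, 346 and 391 counts in control and 670, 564 and 565 in shtRF. Its shtRF libraries were all well above, at 8.95 ± 0.68 CPM against 4.83 ± 0.22 (log2 fold change 0.89 ± 0.10, edgeR adjusted p = 4.6e-07). ADAM10, the protease that sheds the outer part of the proteins, rose by 0.30 ± 0.05 (log2, edgeR adjusted p = 6.9e-05).

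Among genes of the WAVE actin-regulating complex, to which alpha and other protocadherins can bind, CYFIP1 fell by 0.64 on the log2 scale (edgeR adjusted p = 6.9e-09), WASF1 by 0.42 (edgeR adjusted p = 0.00048) and ABI2 by 0.35 (edgeR adjusted p = 3.9e-05). ABI2 shares 38.1% of its exonic bases with RAPH1 and CYFIP1 12.8% with NIPA2, both on the other strand.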

How the data were processed

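Messenger RNA was sequenced from 3 control and 3 shtRF libraries of MDA-MB-453. The authors deposited raw counts per gene on GRCh38. The submitters' processing notes name Trimmomatic 0.36, featureCounts from Subread 1.5.1 and edgeR 3.12.1; the aligner and strand setting are not given in the sources used here. In each library 74.2% or more of the counts from 1 to 4 were even, as when both mates of a pair are counted, so counts were also halved as an alternative. A deposited RPKM table was not used, because its last row is incomplete, and RPKM was recomputed from the counts.

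Genes were filtered with filterByExpr (minimum count 10), scaled by TMM and fitted with edgeR 4.0.16 (R 4.3.3) by the quasi-likelihood test with group as the only term. P-values were adjusted (Benjamini-Hochberg) over all 19628 genes, with a threshold of 0.05. DESeq2 1.42.0, limma 3.58.1 on log2(RPKM + 1) and log2(RPKM + 0.1), other scalings and filters, and leaving out each library were alternatives. The scripts were tested on simulated data. Means are given ± SD, and fold changes ± SE.

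The members and lists were chosen with earlier results of these data known. Named genes were the 6 beta genes, and 3 alpha and 3 gamma genes, with the highest RPKM; the 4 largest rises and falls in beta and the 2 in alpha and gamma; all C-type genes; per other list, the 3 smallest adjusted p-values in each direction; and TAF7 and SLC25A2. Others are said to be chosen after their values were seen. After each gene's group mean was subtracted from its log2 levels, the deviations of same-numbered libraries correlated at 0.059, 0.018 and 0.017. The numbers were therefore not taken to pair libraries. Values of 2 listed genes are not reported here, although the counts of their lists include them.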

Additional observations from a re-analysis of the deposited data

How the results depend on the processing

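The alpha, beta and gamma medians kept their sign under every other scaling, filter, tool, the block and each left-out library, and the medians of the other lists were not recomputed. The beta count of higher genes, 1, became 0 with upper quartile scaling and with either limma fit, and it ran from 0 to 1 when 1 library was left out; the beta count of lower genes ran from 1 to 3 there. The beta median, -0.30, was -0.74 with no filter, -0.50 when each library had to hold 10 or more counts, and -0.0358 with limma at a pseudocount of 1, and it ran from -0.77 to -0.0445 with 1 library left out. With limma at pseudocounts of 1 and 0.1, which shrink low genes by construction, the alpha median was 0.27 and 0.40 and the gamma median 0.24 and 0.60. Non-clustered protocadherins had 1 higher gene with no filter and 1 to 2 lower genes with 1 library left out. Partner genes had 5 higher with upper quartile scaling and with either limma fit (5 to 7 with 1 library left out), and 5 lower with either limma fit. Neighbours had 1 to 2 lower with 1 library left out.

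With the family's lowest count subtracted, chosen after seeing the data, 5 alpha genes were higher and 1 lower (median 0.40), and 2 gamma genes were higher and 2 lower (median -0.29). Both medians include a pseudogene from which nothing was subtracted, PCDHA14 in alpha and PCDHGB8P in gamma. In that fit PCDHA6 turned to -0.54 and PCDHGC3 to -0.10.

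With the replicate block, 15 alpha and 22 gamma genes were higher and 1 beta gene was higher and 2 were lower, the other list counts were also unchanged, and over all genes 4123 were higher and 3776 lower, against 4046 and 3704 without the pairing. At 63541413 to 78917459 counts per library, 9 beta genes were too low to test.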
